A study of Glycine max with 24 samples.

Results

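SPX3 and SPX8 are soybean genes of the SPX family, named for a protein domain that senses phosphate in the cell. A probe set is a group of short DNA probes combined into a single value, and on the array used here each gene has 1 probe set that names no other gene. The members were the probe sets with SPX3 or SPX8 as their only gene symbol, 2 of 75990 in all. They were chosen on their difference between low P and normal P in roots of the accession CD, a result of these same arrays. That difference, and every other comparison of the members that holds arrays of CD roots, is therefore given below as a description without a test.

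SPX proteins bind inositol pyrophosphates, small molecules whose level follows the phosphate supply of the cell. In Arabidopsis and rice, the bound SPX protein holds PHR transcription factors away from the promoters of phosphate starvation genes, and it lets them go when phosphate runs short. Several SPX genes of those species are themselves PHR targets that are switched on in phosphate-starved plants, so that the sensor takes part in a feedback loop. The soybean numbers do not stand for a matching gene of the same number in Arabidopsis or rice.

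Roots and leaves came from seedlings of CD (Chundou), an accession that tolerates low P, and of YH (Yunhefengwodou), an accession sensitive to it. All seedlings were kept for 10 days in hydroponic boxes with half-strength Hoagland solution, which held 0.005 mmol/L P for the low P groups and 0.5 mmol/L P for the normal P groups. The 8 groups were CD roots, CD leaves, YH roots and YH leaves, each in low P and in normal P, with 3 biological replicates and 1 array per replicate. Each trait rests on a single accession, so that tolerance and other differences between CD and YH cannot be told apart.

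The median intensity lay between 7.12 and 7.51 on the 24 arrays, and replicates of 1 group correlated at 0.935 to 0.989 over all probe sets. The leaf markers of the tissue check (rubisco activase, rubisco small subunit and a chlorophyll-binding protein, 7 probe sets) were called lower in roots than in leaves for 6 of 7 in CD and 7 of 7 in YH at both P levels. The root markers (isoflavone synthase and a Casparian strip protein, 4 probe sets) were called higher in roots for 4 of 4 in each comparison except YH in normal P, with 3 of 4. A probe set was called at a limma adjusted p under 0.05 with a difference of at least 2-fold. Values below are log2 intensities, on which a difference of 1 is 2-fold. Where arrays are said not to overlap, this is a description only. Full separation of 3 arrays from 3 has an exact two-sided p of 0.1. The share of all probe sets that separate in this way was not counted. Whole roots and leaves were used, and in such samples fewer cells of a type and less RNA per cell cannot be told apart.

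In roots of CD, both sensors were higher in low P than in normal P. SPX3 stood at 4.26, 3.74 and 3.87 on the low P arrays, against 2.40, 2.48 and 2.30 on the normal P arrays. The groups did not overlap, and the difference of the means was 1.57 (SE 0.18), which is 2.96-fold. SPX8 stood at 6.50, 5.85 and 6.46 in low P, against 5.46, 5.16 and 4.88 in normal P. The groups again did not overlap, with a difference of 1.10 (SE 0.22) or 2.15-fold. It was 0.96 without normal P replicate 3 of CD roots and 0.98 without low P replicate 1, both just under 2-fold. This is the contrast that chose the members. Of all probe sets, 0.420% were called in it and 0.325% were called higher in low P.

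The place of SPX3 in its own array changed along with it. In low P, 69.4% of all probe sets had a lower group mean than SPX3 in CD roots, against 41.5% in normal P, so SPX3 in normal P was dimmer than most of the array. SPX8 stood far up the range in both conditions, above 94.3% of probe sets in low P and above 86.6% in normal P.

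**Figure D1:**
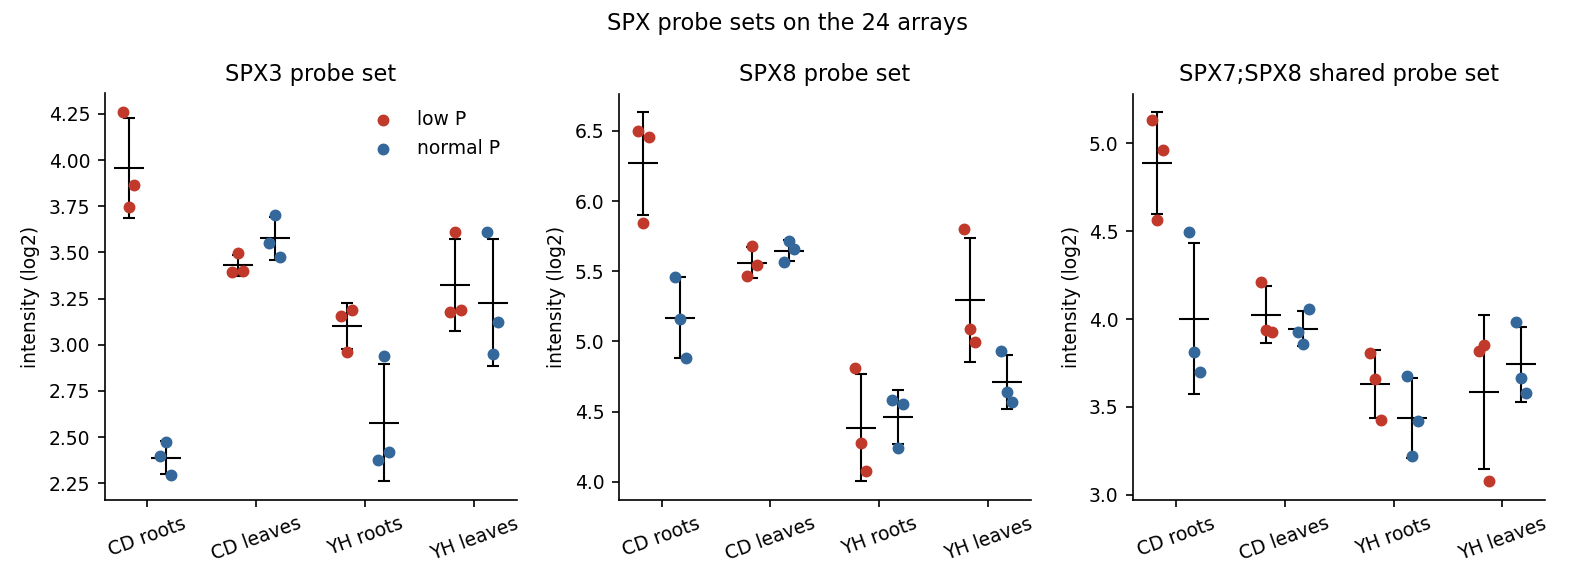
Intensity (log2) of the SPX3 probe set, the SPX8 probe set and the probe set shared by SPX7 and SPX8 on each of the 24 arrays, by accession and tissue, with low P in red left of normal P in blue. Points are arrays, and black bars are the group mean and SD (n = 3). The low P points of CD roots lie above those of every other group in all 3 panels.

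Leaves of CD held the same sensors at levels that differed little between the P supplies. SPX3 gave 3.39, 3.50 and 3.40 in low P, against 3.55, 3.70 and 3.47 in normal P, and the arrays overlapped. Its difference was -0.15, with a 95% interval from -0.53 to 0.23 and a limma adjusted p of 1. SPX8 gave 5.46, 5.68 and 5.54 in low P, against 5.57, 5.72 and 5.66 in normal P. Here the difference was -0.08 with an interval from -0.55 to 0.38 (limma adjusted p = 1). Of all probe sets, 0.00395% were called in CD leaves, and neither interval holds a change of 2-fold.

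In roots of YH, the accession that is sensitive to low P, SPX3 had 3.16, 2.96 and 3.19 in low P, against 2.37, 2.94 and 2.42 in normal P. The groups did not overlap, although normal P replicate 2 (2.94) came close to low P replicate 2 (2.96). The difference of 0.52 (95% interval 0.15 to 0.90, 1.44-fold) had an unadjusted p of 0.00900 in limma and an adjusted p of 1, so it was not called. SPX8 showed no such separation. It had 4.81, 4.27 and 4.08 in low P, against 4.58, 4.24 and 4.56 in normal P, a difference of -0.07 with an interval from -0.54 to 0.39 (limma adjusted p = 1). Without low P replicate 3 of YH roots the SPX8 difference was 0.08. The share of all probe sets called in YH roots was 0.00132%.

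In leaves of YH, the SPX8 arrays did not overlap between the P levels, while the SPX3 arrays did. The sensors were not tested against each other. SPX8 stood at 5.80, 5.09 and 4.99 in low P, against 4.93, 4.64 and 4.57 in normal P, with no overlap. The difference was 0.58 (95% interval 0.12 to 1.05, 1.50-fold), with an unadjusted p of 0.0166 and an adjusted p of 0.460 in limma, and it was not called. Without low P replicate 1 of YH leaves, the highest array of its group, it was 0.33. SPX3 overlapped between 3.17, 3.61 and 3.19 in low P and 3.61, 2.95 and 3.12 in normal P. Its difference was 0.10 (interval -0.28 to 0.47, limma adjusted p = 0.998), and it was -0.04 without normal P replicate 2 of YH leaves and -0.05 without low P replicate 2. Of all probe sets, 0.107% were called in this comparison.

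**Figure D2:**
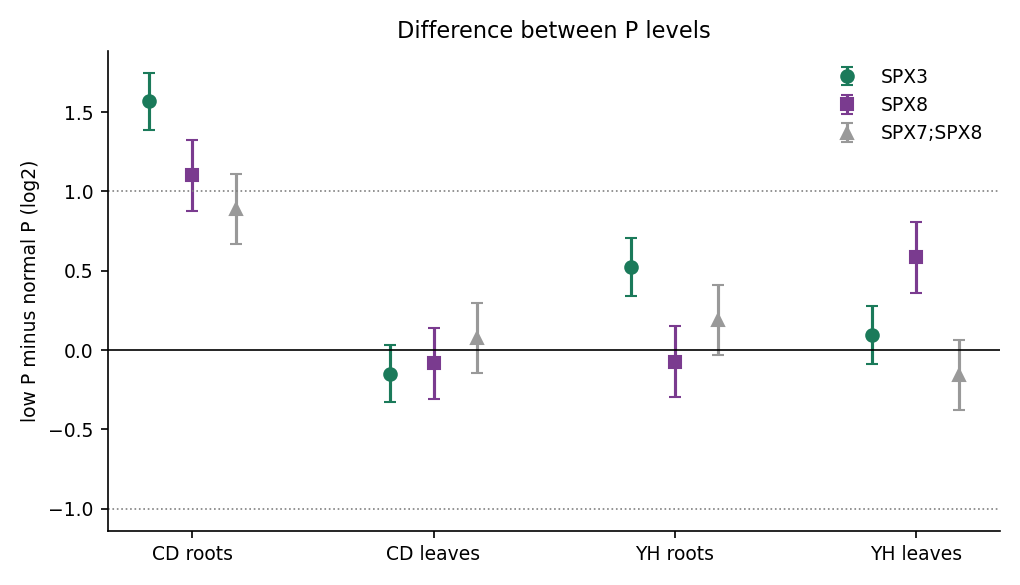
Difference between low P and normal P (log2 intensity, low P minus normal P) for SPX3, SPX8 and the shared SPX7 and SPX8 probe set in each accession and tissue. Points are differences of group means with limma standard errors (3 arrays a group), and dotted lines mark 2-fold. SPX3 and SPX8 pass the upper line in CD roots at 1.57 and 1.10 and in no other place.

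The P responses of the sensors were then set against each other between accessions and between tissues. In roots, the low P response of CD exceeded that of YH by 1.04 for SPX3 and by 1.17 for SPX8, and in CD the response of roots exceeded that of leaves by 1.72 and 1.19. The SPX3 value for CD over YH roots was between 0.86 and 1.15 with single arrays left out, and it was under 2-fold without normal P replicate 3 (0.996) or low P replicate 1 (0.891) of CD roots and without normal P replicate 2 (0.861) or low P replicate 2 (0.973) of YH roots. These 4 differences hold the CD root contrast that chose the members and have no test. In leaves, the response of CD minus that of YH was -0.24 for SPX3 (95% interval -0.78 to 0.29) and -0.67 for SPX8 (interval -1.33 to -0.01), both with a limma adjusted p of 0.9999. In YH, the response of roots minus that of leaves was 0.43 for SPX3 (interval -0.11 to 0.96) and -0.66 for SPX8 (interval -1.32 to 0.00), with limma adjusted p of 1 for both. The background was 0.0237% of probe sets called for the first of these terms and 0.00790% for the second. Neither of these tested terms was called for either sensor, while the intervals of SPX8 reach beyond 2-fold.

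Next, CD was compared with YH in the same tissue and P supply. In low P roots, SPX8 stood at 6.50, 5.85 and 6.46 in CD, against 4.81, 4.27 and 4.08 in YH. The arrays did not overlap, and the difference was 1.88 (SE 0.22) or 3.69-fold. SPX3 was 0.85 higher in CD, also without overlap (SE 0.18, 1.81-fold). The low P arrays of CD roots in this comparison are among those on which the members were chosen, so no test is given, and nothing is read from the 3.39% of all probe sets called here.

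In normal P roots, which also hold arrays of the choosing contrast and are described without a test, SPX3 overlapped between the accessions. It was 2.39 ± 0.09 in CD and 2.58 ± 0.32 in YH (SD, n = 3 each), a difference of -0.19 (SE 0.18). SPX8 was above YH on every CD array, at 5.17 ± 0.29 in CD and 4.46 ± 0.19 in YH (SD, n = 3 each), a difference of 0.71 (SE 0.22). In this comparison 3.01% of all probe sets were called.

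Leaves share no array with the choosing contrast. In normal P leaves, SPX8 was 5.65 ± 0.08 in CD and 4.71 ± 0.19 in YH (SD, n = 3 each), with no overlap. The difference of 0.93 (95% interval 0.47 to 1.40, 1.91-fold) had a limma adjusted p of 0.00513 and lay just under the 2-fold limit. With single arrays left out it lay between 0.86 and 1.05, with limma adjusted p between 0.00187 and 0.0255. Without normal P replicate 1 of YH leaves, the highest of its group, it was 1.05 (limma adjusted p = 0.00543) and passed that limit. SPX3 overlapped there, at 3.58 ± 0.12 in CD and 3.23 ± 0.34 in YH (SD, n = 3 each), with a difference of 0.35 (limma adjusted p = 0.207) that was 0.54 (limma adjusted p = 0.0451) without the same array. Of all probe sets, 8.22% were called in this comparison.

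In low P leaves both sensors overlapped between the accessions. SPX3 was 3.43 ± 0.06 in CD and 3.32 ± 0.25 in YH, and SPX8 was 5.56 ± 0.11 in CD and 5.30 ± 0.44 in YH (SD, n = 3 each). The differences were 0.11 (95% interval -0.27 to 0.48) and 0.27 (interval -0.20 to 0.73), with limma adjusted p of 0.743 and 0.466, against a background of 6.92%. The spread of SPX8 in low P leaves of YH came from replicate 1 at 5.80, with the other replicates at 5.09 and 4.99.

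In CD, the order of the tissues was not the same at both P supplies. In low P, roots were above leaves on every array, with 3.96 ± 0.27 in roots and 3.43 ± 0.06 in leaves for SPX3 and 6.27 ± 0.37 in roots and 5.56 ± 0.11 in leaves for SPX8 (SD, n = 3 each). The differences were 0.53 for SPX3 (SE 0.18) and 0.71 for SPX8 (SE 0.22), both under 2-fold. The root arrays are those of the choosing contrast, so these values have no test, and the share of all probe sets called was 15.7%.

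In CD in normal P, roots lay below leaves on every array. SPX3 was 2.39 ± 0.09 in roots and 3.58 ± 0.12 in leaves (SD, n = 3 each), a difference of -1.19 (SE 0.18). SPX8 was 5.17 ± 0.29 in roots and 5.65 ± 0.08 in leaves (SD, n = 3 each), a difference of -0.48 (SE 0.22). The CD root arrays are again those of the choosing contrast and no test is given, with 14.7% of all probe sets called. The change in the tissue difference between P levels is the response difference of 1.72 and 1.19 given above.

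In YH, the mean of roots was below that of leaves in both P supplies. In low P, SPX8 was 4.39 ± 0.38 in roots and 5.30 ± 0.44 in leaves (SD, n = 3 each) with no overlap, and the difference of -0.91 (95% interval -1.38 to -0.44) had a limma adjusted p of 0.00317. With single arrays left out, this difference lay between -1.12 and -0.65, with limma adjusted p between 0.000947 and 0.0288. It missed the 2-fold limit but passed it at -1.12 without low P replicate 1 of YH roots (limma adjusted p = 0.000947), at -1.01 without low P replicate 2 of YH leaves (limma adjusted p = 0.00419) and at -1.06 without replicate 3 of those leaves (limma adjusted p = 0.00214). SPX3 overlapped in that comparison with a difference of -0.22 (limma adjusted p = 0.407). The background was 16.7%.

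With normal P, the SPX3 arrays of YH did not overlap between the tissues, while the SPX8 arrays did. SPX3 was 2.58 ± 0.32 in roots and 3.23 ± 0.34 in leaves (SD, n = 3 each) without overlap, a difference of -0.65 (95% interval -1.03 to -0.27) with a limma adjusted p of 0.00819 and under 2-fold. That limma adjusted p was 0.0754 in a fit of these 6 arrays alone and 0.0816 in the same fit with a replicate block. It was 0.0516 without normal P replicate 1 of YH roots and 0.0631 without normal P replicate 1 of YH leaves. SPX8 overlapped, with a difference of -0.25 (limma adjusted p = 0.422), where 16.9% of all probe sets were called.

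**Figure D3:**
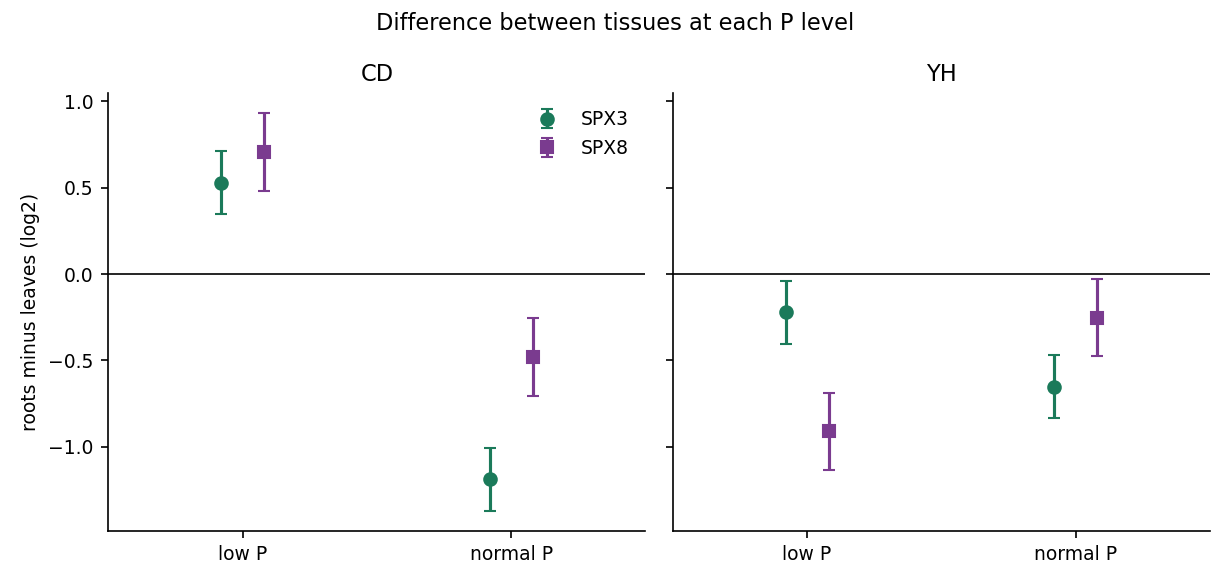
Difference between roots and leaves (log2 intensity, roots minus leaves) for SPX3 and SPX8 in low P and normal P, with CD in the left panel and YH in the right. Points are differences of group means with limma standard errors (3 arrays a group). In CD both sensors are above 0 in low P (0.53 and 0.71) and below 0 in normal P (-1.19 and -0.48), and in YH all 4 points are below 0.

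Ranked over the 8 groups, SPX3 was highest in low P roots of CD (3.96) and lowest in normal P roots of the same accession (2.39). Between them stood normal P leaves of CD (3.58), low P leaves of CD (3.43), low P leaves of YH (3.32), normal P leaves of YH (3.23), low P roots of YH (3.10) and normal P roots of YH (2.58). The arrays of neighbouring groups overlapped except below the first group and between low P and normal P roots of YH. Both gaps were narrow. The lowest array of low P roots of CD (3.74) stood beside the highest of normal P leaves of CD (3.70). In YH roots the lowest low P array (2.96) stood beside the highest normal P array (2.94), and that difference was not called. The order of the means is therefore given as a description.

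SPX8 was also highest in low P roots of CD (6.27), without overlap with the next group. It then ran through normal P leaves of CD (5.65), low P leaves of CD (5.56), low P leaves of YH (5.30), normal P roots of CD (5.17), normal P leaves of YH (4.71), normal P roots of YH (4.46) and low P roots of YH (4.39), each overlapping its neighbour. Both root groups of YH therefore sat at the bottom for SPX8, whereas for SPX3 the bottom groups were the normal P roots of both accessions. Over the 8 group means the sensors correlated at r = 0.70, a value that includes the choosing contrast and is given without a test.

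A further probe set carries SPX7 and SPX8 together, so its signal cannot be given to either gene. It is not a member, and it showed the pattern of SPX8 in roots. In CD roots it had 5.13, 4.57 and 4.96 in low P, against 4.49, 3.81 and 3.70 in normal P, a difference of 0.89 without overlap. In low P roots it was 4.89 in CD and 3.63 in YH, a difference of 1.26 (2.39-fold) without overlap. In YH leaves it did not follow SPX8, with a low P difference of -0.16 (95% interval -0.62 to 0.30) beside 0.58 for SPX8. In normal P leaves, CD exceeded YH on the shared probe set by only 0.20, with overlap (limma adjusted p = 0.570), beside 0.93 for SPX8. In YH in low P, the roots minus leaves difference of the shared probe set was 0.05, with overlap (limma adjusted p = 0.906), beside -0.91 for SPX8. The group means of the shared probe set correlated with those of SPX8 at r = 0.848 over the 8 groups, and shared probes could enter that value.

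The SPX domain list held 6 probe sets with a single symbol, namely SPX3, SPX8, SPX2, SPX4, SPX6 and SPX9. In CD roots 2 of the 6 were called higher in low P and 0 lower, and these were the members themselves, so the count says nothing beyond the choice. SPX8 dropped out of the call and left 1 of 6 in a fit of the CD root arrays alone, with or without a replicate block. The same held in the fit of all groups without low P replicate 1 or 3, or without normal P replicate 2 or 3, of CD roots. In CD leaves, YH roots and YH leaves 0 of 6 were called, where 0.00395%, 0.00132% and 0.107% of all probe sets were, so that a count of 0 is near the background. The list medians in CD roots, CD leaves, YH roots and YH leaves were 0.00, 0.02, 0.05 and -0.02, beside -0.01, -0.01, 0.00 and 0.00 over all probe sets.

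For the other family members the low P difference in CD roots was -0.11 for SPX2, 0.01 for SPX4, -0.14 for SPX6 and -0.01 for SPX9. The nearest to a change elsewhere was SPX2 in YH leaves, at 2.05, 2.26 and 2.25 in low P against 2.75, 2.85 and 2.56 in normal P. That difference of -0.53 had a limma adjusted p of 0.338 and was not called.

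SPX4 had a pattern of its own, which was picked out after its values were seen. It lay between 4.06 and 4.95 on the 6 arrays of CD leaves and at or below 2.95 on all 18 other arrays, in both P supplies. CD exceeded YH by 2.01 in low P leaves and by 1.71 in normal P leaves (SE 0.20 each). SPX4 was picked on these values, so no test is given. Of all probe sets, 6.92% and 8.22% were called in these comparisons. Its low P difference in CD leaves was 0.13 (95% interval -0.28 to 0.55).

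The partners and targets of SPX proteins were read by lists of gene symbols. PHR factors are the transcription factors that SPX proteins bind, and 0 of 28 probe sets were called in any of the 4 low P comparisons. Their median in CD roots was 0.04, and the smallest p values belonged to PHR18 in YH leaves (0.74, limma adjusted p = 0.417), PHR34 in YH leaves (-0.65, limma adjusted p = 0.439) and a PHR22 probe set in CD leaves (-0.56, limma adjusted p = 1). With at most 0.420% of all probe sets called in these comparisons, 0 of 28 is near the background.

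PHT1 transporters carry phosphate into cells, and in Arabidopsis and rice their genes are targets of PHR factors. Of 14 probe sets 0 were called, with a median of 0.11 in CD roots. PHT1-3 came closest, at 6.26, 6.03 and 6.12 in low P against 5.26, 5.31 and 5.28 in normal P of CD roots. The groups lay far apart relative to their spread, and the difference of 0.86 (1.81-fold) had a limma adjusted p of 0.0414 but missed the 2-fold limit. In YH roots PHT1-3 was 4.93, 4.79 and 4.59 in low P against 4.28, 4.32 and 4.29 in normal P, also without overlap, and the difference of 0.47 was not called. PHT1-14 (0.68, limma adjusted p = 1) and PHT1-8 (0.35, limma adjusted p = 0.957) in CD roots came next.

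PHO1 proteins, which also carry an SPX domain and in Arabidopsis load phosphate into the xylem, gave 0 calls for 8 probe sets. PHO1-H14 and PHO1-H9 had differences of 0.59 and 0.54 in CD roots (limma adjusted p = 0.797 and 1), and PHO1-H5 had -0.66 in YH leaves (limma adjusted p = 0.625). Acid phosphatases release phosphate from organic compounds, and 0 of 4 probe sets were called in the list of purple acid phosphatases (PAP) and ACP1. PAP14 stood at 5.99, 5.32 and 5.61 in low P against 5.13, 4.74 and 4.80 in normal P of CD roots, a difference of 0.75 without overlap (limma adjusted p = 0.347). ACP1 had 0.49 in CD roots (limma adjusted p = 1) and PAP02 had 0.58 in YH leaves (limma adjusted p = 0.806).

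Over these 4 lists together, 0 of 54 probe sets were called in each of the 4 low P comparisons. The background was 0.420%, 0.00395%, 0.00132% and 0.107% of all probe sets in CD roots, CD leaves, YH roots and YH leaves, and a count of 0 is near it for lists of this size. At an unadjusted limma p under 0.05 there were 6 in CD roots (11.1%, beside 4.03% of all probe sets), 1 in CD leaves (1.85%, beside 2.57%), 1 in YH roots (1.85%, beside 1.54%) and 4 in YH leaves (7.41%, beside 7.71%). These shares were not tested.

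**Figure D4:**
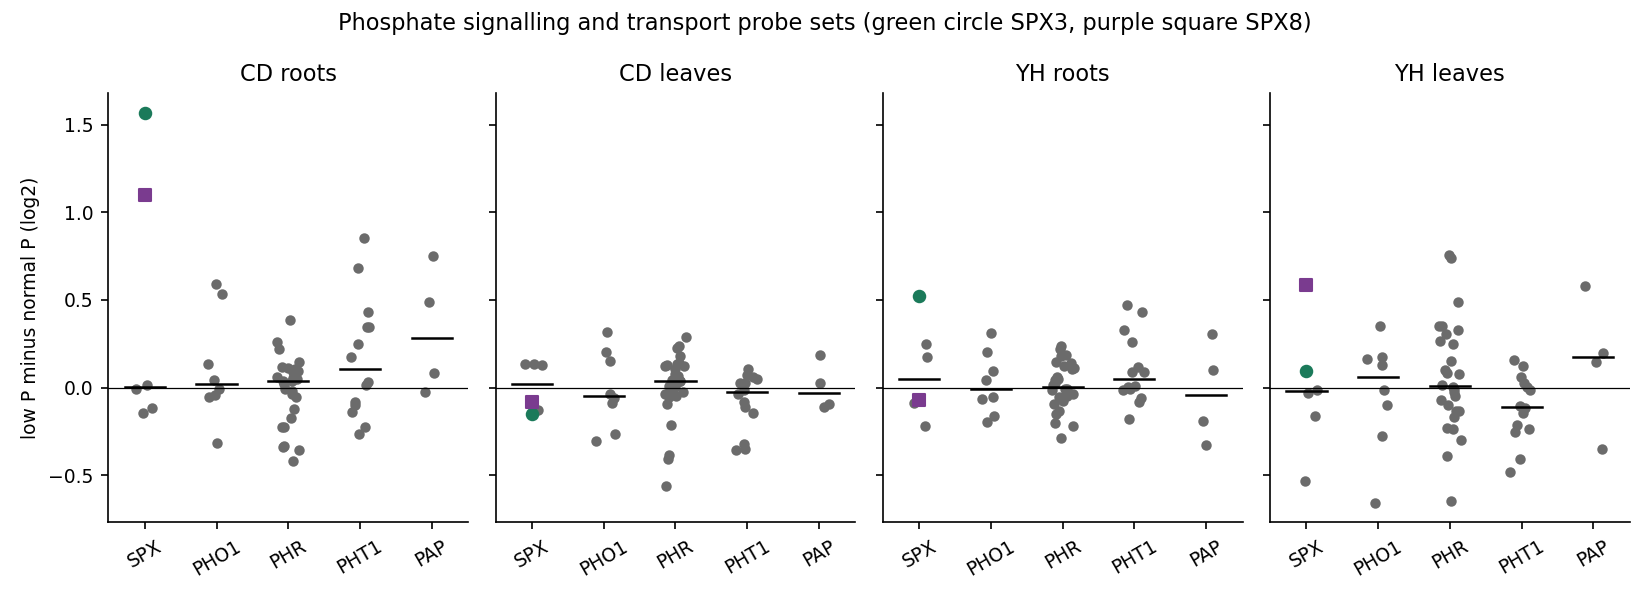
Difference between low P and normal P (log2 intensity, low P minus normal P) of each probe set of 5 symbol lists, with 1 panel per accession and tissue. Black bars are list medians, the green circle is SPX3 and the purple square is SPX8. In CD roots SPX3 (1.57) and SPX8 (1.10) stand above all other points, the next being PHT1-3 (0.86).

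The genes whose group means ran most like those of each sensor were taken from 12818 probe sets that had 1 symbol, a signal above the median and a range of at least 1 over the 8 groups. For SPX3 they were LOC100791557 (r = 0.868), LOC100790729 (r = 0.841), LOC100813372 (r = 0.819), LOC100814726 (r = 0.760) and LOC100789460 (r = 0.758). LOC100791557 stood at 5.78 in low P and 2.31 in normal P of CD roots, a wider gap than that of SPX3. LOC100790729 stood at 3.81 and 2.78 there, a narrower gap. For SPX8 they were LOC100800826 (r = 0.941), LOC100802458 on 2 probe sets (r = 0.919 and 0.918), LOC100803792 (r = 0.902) and LOC100816007 (r = 0.894). Each of these SPX8 look-alikes had a narrower gap between low P and normal P of CD roots than SPX8. LOC100800826, for example, stood at 5.78 and 5.24. The r values given are the highest of many correlations over only 8 points that share the tissues and accessions, and no test was made of them. The points include both CD root groups, so the correlations hold the contrast on which the members were chosen.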

How the data were processed

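The deposited table holds a linear intensity per probe set for each of the 24 Affymetrix Soybean Gene 1.1 ST arrays, which the authors corrected for background, summarised and normalized between arrays. The study's methods name RMA for this step, whereas the submitters' processing notes name MAS5 (version not given). RNA came from a plant kit according to the methods and from Trizol according to the labels. Values were turned into log2 without a filter. All 24 sample columns were used, with 0 others in the table. A total of 32405 probe sets have 1 symbol in the platform annotation.

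All probe sets were fitted in limma 3.58.1 (R 4.3.3) by a model that gives every one of the 8 groups its mean, and p values were adjusted by Benjamini-Hochberg over 75990 probe sets in each comparison. Each member had 9 tested comparisons. The 7 that hold CD root arrays were fitted likewise, and their p values are not given, since the members were chosen on those arrays. The number of arrays limits the precision. An exact two-sided test of 3 arrays against 3 cannot go below a p of 0.1. Single results therefore rest on the spread that limma takes for each probe set over all 8 groups, with 16 residual degrees of freedom. A smaller part of that spread, with 4.22 prior degrees of freedom, is shared between probe sets. SAM, named in the methods, was not run. The fit was tested on simulated data.

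The members and gene lists were chosen with earlier results of these data known. The text names both members, the SPX list, up to 3 probe sets of each other list with the smallest p over the low P comparisons, and the 5 probe sets most like each member. Lists were read from symbols only, and those for PHO2 and NLA, lipid remodelling and inositol pyrophosphate kinases matched 0 probe sets. The symbols PT03, PT10B, PT10D and PT11A were left out of the PHT1 list after the annotation was seen. The study's labels number 3 biological replicates per group. A check for pairing asked whether all 3 same-number correlations of deviations were above 0.1, which held in 5 of 12 comparisons. The main fit did not pair replicates in any comparison. The alternatives were a replicate block, a fit of the compared groups alone, no fold limit, quantile normalization, centring on array medians, a fit without the dimmest probe sets and leaving out each array in turn.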

Additional observations from a re-analysis of the deposited data

Results flagged for a closer look

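The roots minus leaves difference had opposite signs in some pairs of groups, and the root and leaf arrays did not overlap on either side. The share of all probe sets with such a reversal was not counted. For SPX3, roots were above leaves by 0.53 in CD in low P, while the roots minus leaves difference was -1.19 in CD in normal P and -0.65 in YH in normal P. For SPX8, roots were above leaves by 0.71 in CD in low P, while the difference was -0.48 in CD in normal P and -0.91 in YH in low P. Without low P replicate 1 of CD roots, the differences of CD in low P were 0.38 for SPX3 and 0.59 for SPX8. The opposite signs were not tested, since each such contrast holds the low P arrays of CD roots on which the members were chosen.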

How the results depend on the processing

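The CD root count of called SPX domain probe sets was 2. These were the members on the contrast that chose them, so the count is no test of them. It fell to 1 in the separate fit, with or without the replicate block, since SPX8 was then not called. The count lay between 1 and 2 when single arrays were left out. With single arrays left out, the low P difference lay between -0.047 and 0.287 for SPX3 in YH leaves (-0.043 without normal P replicate 2) and between -0.285 and 0.083 for SPX8 in YH roots. The SPX8 difference of CD over YH in normal P leaves lay between 0.86 and 1.05, and that of roots over leaves in YH in low P between -1.12 and -0.65, crossing the 2-fold limit in both cases. In the 9 tested comparisons, 425 of 432 values with 1 array left out and 96 of 96 under the other settings kept their direction and side of the call. In the 7 comparisons with CD root arrays, 336 of 336 and 72 of 72 kept their sign, while 6 values with 1 array left out crossed 2-fold, with SPX8 in CD roots between 0.96 and 1.31 and SPX3 in the CD over YH root response between 0.86 and 1.15. The replicate block changed no other call. The deposited table gives no detection flag, so signal over background was not judged.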
